A study of Arabidopsis thaliana with 16 samples.

Results

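The quiescent centre (QC) marker cells of the Arabidopsis thaliana root, group W5S, were compared with group W5NS, the GFP-negative cells of the same plants. The members were all 33201 loci of the expression table, read in the pooled W5S column and the pooled W5NS column, which stand for 8 of the 16 libraries of the series, 4 in each group. Both groups came from pWOX5:erGFP roots, in which the WOX5 promoter drives a GFP kept in the endoplasmic reticulum. W5S cells were GFP positive and W5NS cells GFP negative. The other 2 groups of the series, C6 and w5C6, were GFP-positive cells of the pCYCD6:GUS-GFP reporter, a marker of the cortex endodermis initial (CEI), in roots without and with the wox5 mutation. All seedlings were 5 days old, and all cells were protoplasts (cells freed of their walls) from about the last 1 mm of the root, sorted by fluorescence. W5NS is thus a mixture of whatever else the root tip holds and not a single cell type, and neither group received a treatment.

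The QC is a small group of rarely dividing cells at the centre of the root stem cell niche. It keeps the initials around it from differentiating, and the homeodomain protein WOX5 made there moves into neighbouring cells. The initials below the QC give rise to the columella and lateral root cap, those at its flanks to cortex and endodermis, and those above it to the stele. PLT and SCR transcription factors, together with an auxin maximum, position the niche.

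Each locus had 1 value per group, the authors' pooled value, read as FPKM (fragment counts relative to transcript length and to the depth of the library). A pooled value carries no spread between libraries, so no standard deviation, n or test can be given for any difference below, and the depth of the libraries is unknown. Differences are given as a fold, the ratio of the FPKM values, and as a log2 ratio of (FPKM + 1), a scale that understates the change of low genes. A locus counted as higher or lower when it had at least 10 FPKM in the higher group and a log2 ratio of at least 2 in size, which is 4-fold on that scale. Counts at 2-fold use the same minimum and a log2 ratio of 1. In bulk RNA of sorted cells, fewer cells of a type and less RNA per cell cannot be told apart.

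W5S and W5NS were close over most of the transcriptome. Of the 11666 loci with at least 10 FPKM in either group, 116 were 4-fold higher in W5S (0.994%) and 58 were 4-fold lower (0.497%). At 2-fold the counts were 754 higher (6.46%) and 452 lower (3.87%). Over the 11166 loci that averaged at least 10 FPKM across the 4 populations, 91.2% differed by less than 2-fold between W5S and W5NS and the log2 ratio had an SD across loci of 0.63. That SD was the smallest among the 6 pairs of populations, where the others lay between 0.71 and 1.03. By the share under 2-fold, C6 and w5C6 were the closer pair, at 92.2% of these loci. The median log2 ratio over the 11666 loci was 0.05. The sum of FPKM over the nuclear loci was larger in W5S, and setting both sums equal shifted W5S by -0.13 on the log2 scale and gave 82 loci higher and 72 lower.

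**Figure D1:**
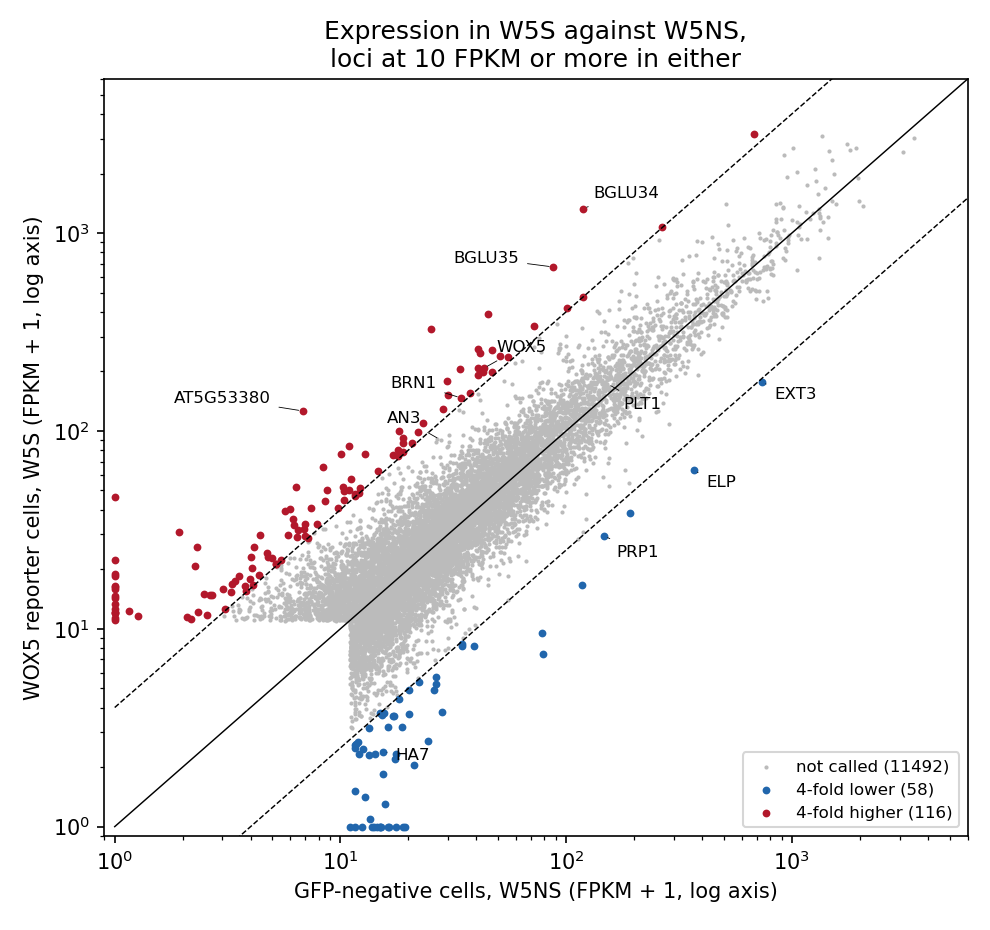
Pooled expression of the 11666 loci with at least 10 FPKM in either group, with W5NS on the horizontal and W5S on the vertical axis, both as FPKM + 1 on a log scale. The solid line marks equal levels and the dashed lines a 4-fold difference. The 116 loci higher in W5S are red, the 58 lower loci blue, and the points on the edges at 1 are loci listed at 0 in 1 group.

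WOX5 (AT3G11260), the gene whose promoter drove the reporter, stood at 206 FPKM in W5S and 42.1 in W5NS, with a log2 ratio of 2.27. It was thus 4.90-fold higher in the sorted cells, the direction that the labels require, and the GFP-negative cells still held 20.4% of the W5S level. In the other reporter line WOX5 read 18.4 FPKM in C6 and 0.0865 in w5C6. W5NS was therefore not free of WOX5 RNA, and its level lay above that of C6.

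The other regulators of the niche differed far less than WOX5. Of 26 niche genes, 17 had a log2 ratio above 0 and 9 below, and the median log2 ratio was 0.16. WOX5 was the only member with a log2 ratio of 2 or more in size, while 3 more reached 1. AN3, a transcriptional co-activator of cell proliferation, read 89.0 FPKM in W5S and 26.8 in W5NS (log2 ratio 1.70), and it was higher still in C6 (184) and w5C6 (161). MYB56, a MYB factor that restrains QC division, read 50.8 and 17.56 FPKM (1.48). SCL3, a GRAS protein downstream of SHR and SCR, read 19.4 and 9.15 FPKM (1.01). AGL42, a MADS-box gene expressed in the QC, followed at 20.4 and 10.2 FPKM (0.93), and TEL1, which encodes a TERMINAL EAR1-like RNA-binding protein, at 71.2 and 39.2 (0.85). These genes and SCR (30.9 and 17.4 FPKM, 0.79) all lay on the W5S side. Among the 9 members on the W5NS side were TPL (27.4 and 44.2 FPKM, -0.67), RBR1 (27.4 and 34.3, -0.31) and JKD (20.3 and 23.4, -0.20).

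The PLT family, the AP2-type factors that set stem cell identity by dose, hardly differed between the groups. PLT1 read 172 FPKM in W5S and 151 in W5NS, PLT2 78.4 and 71.1, BBM 61.6 and 55.9, and PLT3 was the lower in W5S at 119 and 146. The WIP zinc finger genes WIP4 (86.8 and 68.7), WIP5 (68.8 and 57.0) and NTT (56.4 and 51.5), which act in the distal stem cells, were likewise close. All 3 were at 5.56 FPKM or less in C6 and w5C6, so that a high level was shared by both sorts of the WOX5 reporter line. SHR, which is transcribed in the stele, read 2.86 FPKM in W5S and 6.36 in W5NS, both under 10. Of the 20 niche list members with at least 10 FPKM, 4 were 2-fold higher, beside 6.46% of all loci at that level. Nothing is read from this count. It includes WOX5, whose promoter drove the sort, and AN3, which the paper singled out from comparisons with W5NS. It also includes SCL3, which reached 10 FPKM in W5S only.

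**Figure D2:**
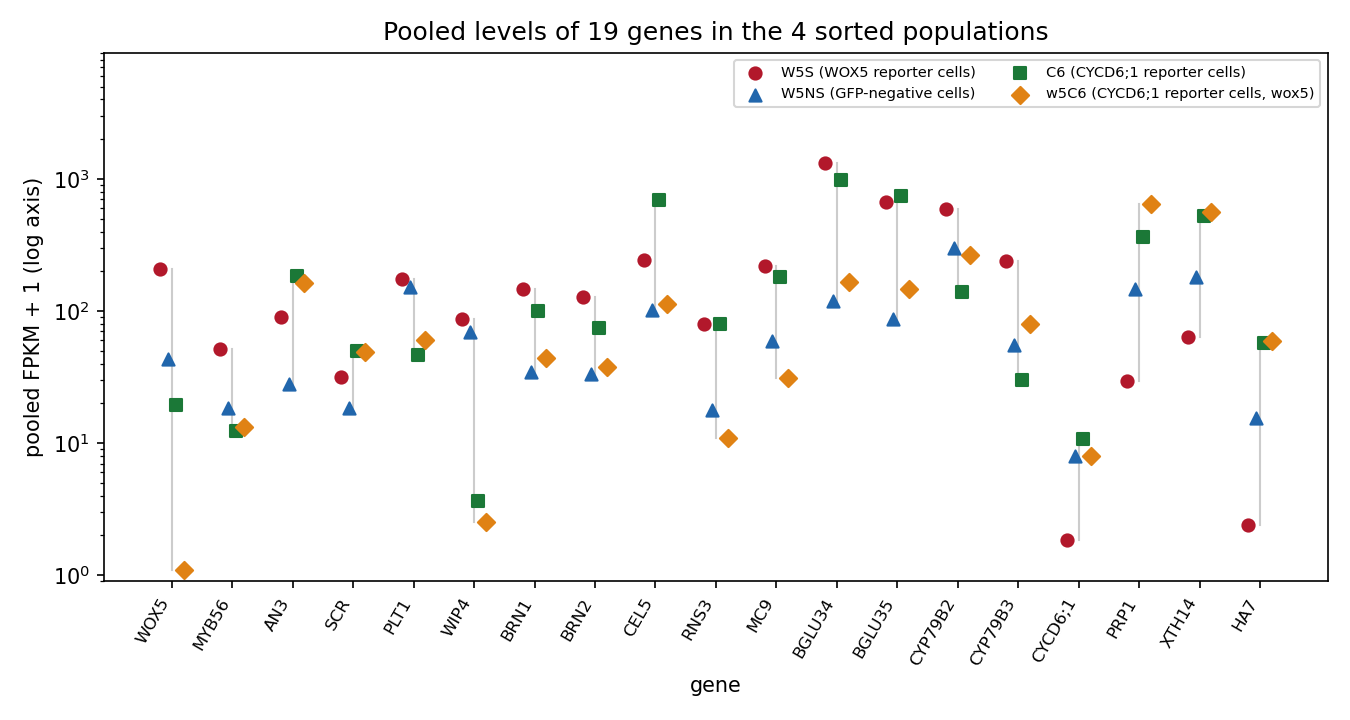
Pooled levels of 19 genes in W5S, W5NS, C6 and w5C6, as FPKM + 1 on a log axis, with 1 point per population and no error bar because the values are pooled. WOX5 and MYB56 are highest in W5S, BGLU34 and the root cap genes BRN1, BRN2, RNS3 and MC9 stand well above W5NS in both W5S and C6, and PRP1, XTH14 and HA7 are lowest in W5S.

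Markers of the root cap did not move as a block. The columella and lateral root cap list had 13 members with a median log2 ratio of -0.05 and a mean of 0.24, and its summed level was 956 FPKM in W5S and 664 in W5NS. BRN1 (NAC015) and BRN2 (NAC070), paired NAC factors of root cap maturation, stood out. BRN1 read 146 FPKM in W5S and 33.3 in W5NS (log2 ratio 2.1, and 1.96 with equal nuclear sums, which is under the threshold), and BRN2 126 and 32.4 (1.93). CEL5, a cellulase of detaching cap cells, read 244 and 101 FPKM (1.26). Other NAC genes of the cap pointed the other way, with FEZ, which drives root cap stem cell divisions, at 24.9 and 52.8 FPKM (-1.05) and SMB, which ends them, at 48.2 and 72.2 (-0.58). ARL2, a gravity signalling gene of the columella, was close at 33.7 and 34.9 FPKM. CEL3, another cellulase of the list, read 28.1 and 29.5.

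The genes of root cap cell death were the list with the highest median. All 6 members lay above a log2 ratio of 1, with a median of 1.78 beside 0.05 over the loci at 10 FPKM or more and -0.02 over all loci. All 5 members at 10 FPKM or more were 2-fold higher and 2 of them 4-fold higher, beside 6.46% and 0.994% of all loci at that level. The list was chosen with earlier results of these data known, so its rank and these counts are a description only. RNS3, a secreted-type ribonuclease, read 78.9 FPKM in W5S and 16.9 in W5NS (2.16). AT4G04460, annotated as a saposin-like aspartyl protease, read 21.8 and 3.97 (2.2). With a pseudocount of 5 in place of 1 both were under the threshold, at 1.94 and 1.58. MC9, a metacaspase, had the highest level at 219 and 58.1 (1.90). BFN1, a nuclease that degrades DNA and RNA in dying cells, read 14.3 and 5.53 (1.23), and the serine carboxypeptidase gene SCPL48 39.9 and 16.1 (1.26). AT2G14095 was low in both groups at 6.79 and 1.45 FPKM. C6 over w5C6 is a contrast of the other line that shares no library with W5S or W5NS. There the median of these 6 genes was 2.13, beside 0.02 over the loci at 10 FPKM or more in W5S or W5NS. The endodermis list had a higher median in that contrast, at 3.33, beside -0.09 in W5S over W5NS.

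Nuclease and hydrolase genes outside that list were also among the 116. Genes named by their annotation from here on were chosen after their values were seen, unless a list is named. CAN, a calcium-dependent nuclease, read 336 FPKM in W5S and 71.3 in W5NS, AT1G14220, annotated as a T2-type ribonuclease, 239 and 50.1, and AT3G03500, a TatD-related DNase by annotation, 198 and 41.7. The carboxypeptidase genes SCPL34 (128 and 27.5 FPKM) and scpl25 (28.8 and 3.41) and the phosphatase gene PAP22 (14.4 and 2.28) lay on the same side. The part of root cap cells among the sorted cells in these values was not tested. The starch genes, by which columella cells are known, were close between the groups: none of 19 reached a log2 ratio of 1 in size, and the median log2 ratio was 0.09 (-0.03 with equal nuclear sums, and a mean of -0.05).

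The myrosinase genes BGLU34 and BGLU35, which encode beta-glucosidases that release defence compounds from glucosinolates, combined a high level with a large difference. BGLU34 read 1329 FPKM in W5S and 117 in W5NS, an 11.3-fold difference (log2 ratio 3.49). BGLU35 read 673 and 86.7 FPKM, 7.76-fold (2.94). In the other line both were higher in C6, at 980 and 746 FPKM, than in w5C6, at 165 and 145. BGLU26 (PEN2), an atypical myrosinase of leaf immunity, read 68.7 and 29.5 FPKM (1.19). The glucosidases of the ER body, an ER-derived compartment of seedling epidermis, were abundant in both groups and close, with BGLU23 at 1691 and 1405 FPKM, BGLU21 at 1836 and 1274 and BGLU22 at 717 and 683. Of the whole list of 18, 11 had at least 10 FPKM. Among these 2 were 4-fold higher and 0 4-fold lower, beside 0.994% and 0.497% of all loci at that level. The median over the 18 was 0.06 and turned to -0.01 with equal nuclear sums.

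Of the 17 genes of glucosinolate synthesis and transport, 7 were above 0 and 10 below, with a median of -0.15. Beside 3.87% of all loci 2-fold lower and 6.46% 2-fold higher, 0 of the 6 with at least 10 FPKM were lower and 1 was higher. That gene, CYP79B3, which like CYP79B2 converts tryptophan to indole-3-acetaldoxime, a precursor of indole glucosinolates, camalexin and auxin, read 236 FPKM in W5S and 54.4 in W5NS (2.1, and 1.97 with equal nuclear sums, which is under the threshold). CYP79B2 read 594 and 297 (0.99), CYP83B1, the next enzyme, 314 and 206 (0.61), SUR1, the C-S lyase, 44.8 and 33.1 (0.43), and MYB34, a regulator of the indole branch, 111 and 79.6 (0.47). These 5 genes of the indole branch were above 0, and they were grouped after their values were seen. MYB28, CYP79F1, CYP79F2, CYP83A1, MAM1 and BCAT4, genes of the aliphatic branch, had at most 2.06 FPKM in either group. The transporter gene GTR1 was the higher in W5NS, at 30.9 FPKM in W5S and 59.6 in W5NS. In contrast to the myrosinases, CYP79B3 was lower in C6 (28.8 FPKM) than in w5C6 (79.0).

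Some of the loci higher in W5S carry annotations of lipid metabolism, picked here after their values were seen. Over whole annotation families the median log2 ratios were 0.01 for WSD1-like genes, -0.12 for lipid transfer, -0.13 for GDSL lipases, 0.11 for acyl desaturases, 0.54 for GNS1/SUR4 elongases and -0.06 for cis-prenyltransferases. AT5G53380, of the WSD1-like family of wax ester synthases, read 125 FPKM in W5S and 5.81 in W5NS (21.5-fold), and AT3G49190 of the same family 190 and 39.9. These were the only 2 of 12 WSD1-like genes with at least 10 FPKM. AT5G16230, a stearoyl-ACP desaturase by annotation, read 390 and 44.0 FPKM (8.87-fold), and AT2G37700, of the fatty acid hydroxylase superfamily, 51.1 and 5.38. AT3G06460, of the GNS1/SUR4 family of fatty acid elongases, read 151 and 28.9 FPKM. GPAT8, an acyltransferase of cutin synthesis, read 16.5 and 2.41. The lipid transfer annotations held 4 of 25 genes that were 4-fold higher, among them LTP5 (21.9 and 3.01 FPKM), AT4G22640 (64.7 and 7.34) and the glycolipid transfer protein gene AT4G39670 (247 and 40.4), and 1 that was lower, AT2G45180 (6.45 and 78.0), where the shares over all loci were 0.994% and 0.497%.

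Cis-prenyltransferases, which build the long isoprenoid chains of dolichols, gave 3 calls among 4 genes with at least 10 FPKM, all higher in W5S. AT5G58784 read 326 FPKM in W5S and 24.1 in W5NS (13.5-fold). AT2G23400 read 29.7 and 0.928 (32.02-fold), and its neighbour in gene order, CPT, 98.6 and 17.1 (5.76-fold). Of 4 terpenoid synthases at that level, AT3G29430 (49.1 and 7.72 FPKM) and AT3G20160 (50.4 and 11.2) were 4-fold higher. Other enzyme families contributed few members each: 4 cytochromes P450 of 56 were 4-fold higher and 1 lower, 4 UDP-glycosyltransferases of 56 were higher, and 2 of 3 strictosidine synthase-like genes were higher. Over all loci 0.994% were higher and 0.497% lower, and nothing is read from the family counts, since the families were picked for their calls.

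The most abundant locus in W5S was AT5G60530, annotated as a late embryogenesis abundant-related protein, at 3179 FPKM against 676 in W5NS. It was 4.70-fold higher in W5S, and read 1718 FPKM in C6 and 488 in w5C6. AT1G52060, a mannose-binding lectin gene by annotation, read 1076 FPKM in W5S and 265 in W5NS, and GSTU22, a tau-class glutathione transferase, 415 and 100.2. By contrast the most abundant locus in W5NS, the elongation factor gene AT5G60390, was close at 3006 and 3464 FPKM. AT1G59740, annotated as a major facilitator superfamily transporter, read 205 FPKM in W5S and 32.9 in W5NS but only 1.53 in C6 and 6.07 in w5C6.

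No member of the 3 auxin lists reached a log2 ratio of 2 in size at 10 FPKM or more, while some auxin-related genes outside them did. WAG1, a kinase gene related to PINOID and no list member, read 256 FPKM in W5S and 46.0 in W5NS (log2 ratio 2.45). ARF19, an activating auxin response factor, read 26.5 and 6.15 FPKM (1.94), just under the threshold. AFB2, an auxin receptor, read 76.8 and 35.6 (1.09), and ARF9 22.6 and 10.3 (1.07), whereas ARF5 (MONOPTEROS) was closer at 180 and 117 (0.62). Also outside the lists, AT5G51470, of the GH3 family of auxin-conjugating enzymes, read 97.5 and 21.1 FPKM, and AT3G12955, annotated as SAUR-like, 91.6 and 18.0. Of the 19 genes of perception and response 11 were above 0, and the median was 0.10 (-0.03 with equal nuclear sums).

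By their medians, auxin synthesis and transport genes leaned in opposite directions, while both lists summed to less in W5S. The sums were 665 FPKM in W5S and 768 in W5NS for synthesis, and 719 and 938 for transport. Of 11 synthesis genes 8 were above 0, with a median of 0.27, among them YUC5 (8.36 and 2.22 FPKM, 1.54) and TAR2 (8.95 and 2.57, 1.48), both under 10 FPKM. TAA1, the aminotransferase that makes indole-3-pyruvic acid, read 102 FPKM in W5S and 80.1 in W5NS, and YUC3, which converts it to auxin, 393 and 491. YUC9, at 10.4 and 30.9 FPKM (-1.48), and YUC8, at 59.4 and 98.6 (-0.72), were also lower in W5S. Of 11 transport genes 9 were below 0, with a median of -0.26, among them PIN3 (72.8 and 132.6 FPKM) and PIN4 (212 and 327), efflux carriers of the columella and the niche. Over all 33201 loci 17450 were below 0 and 10920 above, and among the 11666 at 10 FPKM or more 5423 and 6243. At 10 FPKM or more, 0 of 9 transport genes were 2-fold apart. Of 7 synthesis genes at that level 1 was 2-fold higher and 1 lower, beside 6.46% and 3.87% of all loci. IAA33, a non-canonical Aux/IAA gene, read 192 and 382 FPKM (-0.99). IAA33 and IAA20 (152 and 172) were at most 30.7 FPKM in C6 and w5C6. The cytokinin list (18 members, median -0.07) and the brassinosteroid list (10, median -0.07, mean 0.01) had no 4-fold difference. BES1, a transcription factor of brassinosteroid signalling, was 2-fold higher at 110 and 52.6 FPKM.

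RGF peptides, the secreted signals that maintain PLT protein in the meristem, were abundant in both groups. RGF3 read 889 FPKM in W5S and 964 in W5NS, RGF2 259 and 358, and RGF1 70.2 and 71.6. RGF7 had a log2 ratio of 2.07 but stayed under 10 FPKM, at 8.07 and 1.16. None of the 3 abundant peptide genes was higher in the WOX5 reporter cells.

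**Figure D3:**
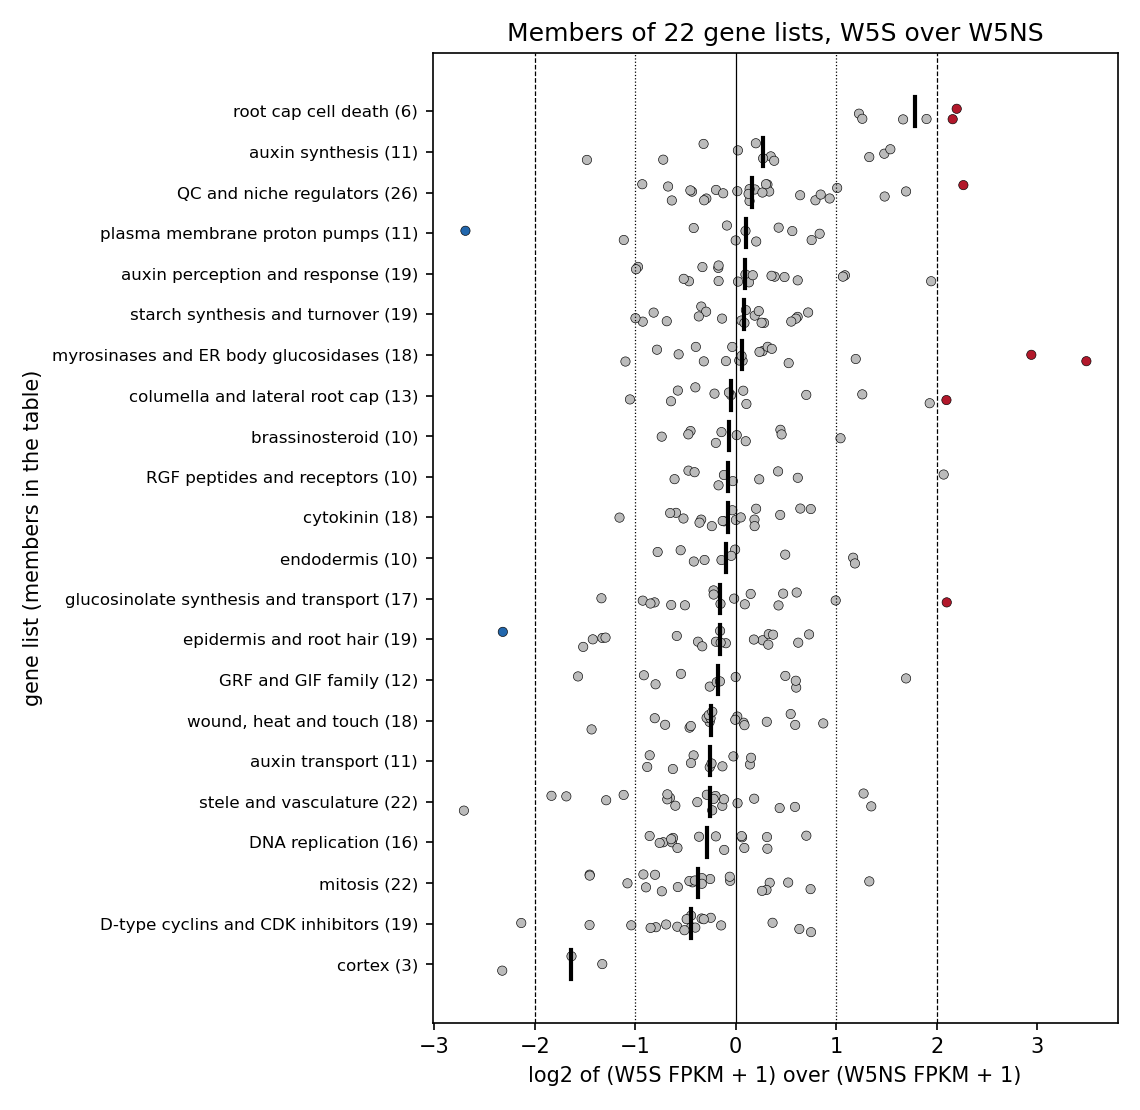
Log2 ratios of W5S over W5NS for the members of 22 gene lists, 1 point per gene, with the number of members in the table in parentheses. Thick bars are list medians, dotted lines mark 2-fold and dashed lines 4-fold, and coloured points are genes 4-fold higher (red) or lower (blue) with at least 10 FPKM. The list of root cap cell death is highest at a median of 1.78, and the cell cycle lists lie between -0.44 and -0.28.

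By their medians, the cell cycle lists leaned to the W5NS side without any gene passing 4-fold at 10 FPKM. Of 22 mitotic genes 16 were below 0 (median -0.37), and of 16 replication genes 10 (-0.28). Of 19 D-type cyclins and CDK inhibitors 16 were below 0 (-0.44), beside a median of -0.02 over all loci. Over all 33201 loci 17450 were below 0 and 10920 above, and among the 11666 at 10 FPKM or more 5423 and 6243. CDC20.1, an activator of the anaphase-promoting complex, read 10.2 FPKM in W5S and 29.7 in W5NS (-1.45). The mitotic cyclin genes CYCB2;4 (5.20 and 16.0 FPKM, -1.45) and CYCB1;1 (9.64 and 21.5, -1.08) followed. MYB3R4, an activator of mitotic genes, went the other way at 13.3 and 4.71 FPKM (1.33). Of the 19 mitotic genes with at least 10 FPKM, 3 were 2-fold lower and 1 was 2-fold higher. The replication list had 0 of 11 either way, and the list of D-type cyclins and CDK inhibitors 1 of 10 lower and 0 higher. Over all loci 3.87% were 2-fold lower and 6.46% 2-fold higher.

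CYCD6;1, the D-type cyclin of the CEI division, read 0.828 FPKM in W5S and 7.02 in W5NS (-2.13), under the 10 FPKM minimum in both. It stood at 9.75 FPKM in C6 and 7.01 in w5C6, so W5S was the lowest of the populations. CYCD3;3 read 26.7 and 55.9 FPKM (-1.04), and CYCD3;1 2.59 and 8.85 (-1.45). Of the CDK inhibitors, KRP6 was the higher in W5S at 23.6 and 14.9 FPKM and KRP7 the lower at 23.6 and 43.2.

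Among the 58 lower loci were genes of elongating walls and root hairs. PRP1, a proline-rich wall protein of root hairs, read 28.5 FPKM in W5S and 146 in W5NS, 5.12-fold lower, and was higher again in C6 (365) and w5C6 (646). ELP, an extensin-like protein gene, read 62.1 and 366 FPKM, and EXT3, an extensin needed to assemble the new wall at division, 175 and 734. The annotation of extensins and proline-rich proteins held 4 lower and 0 higher loci among 82 with at least 10 FPKM, beside 0.497% and 0.994% of all loci. At 2-fold this annotation held 11 lower and 3 higher, beside 3.87% and 6.46% of all loci. Nothing is read from these counts, since the annotation was picked for its calls. XTH13 and XTH26, xyloglucan-modifying enzymes, read 7.19 against 38.0 FPKM and 1.60 against 10.6, and the expansin gene EXPA11 4.26 against 25.6. HA7, a plasma membrane proton pump of root hairs, read 1.39 FPKM in W5S and 14.4 in W5NS (-2.69, and -1.60 with a pseudocount of 5, which is under the threshold), while the main pumps HA1 (85.8 and 91.2) and HA2 (183 and 171) were close.

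Not all root hair genes were low in W5S. The epidermis and root hair list of 19 genes had a median of -0.16, with PRP1 4-fold lower and 3 more genes 2-fold lower: XTH14 at 62.6 and 181 FPKM (-1.52), XTH12 at 17.9 and 49.6 (-1.42) and LRX1, a leucine-rich extensin, at 21.7 and 54.6 (-1.29). COBL9, which is needed for hair growth, was the higher in W5S at 74.2 and 44.3 FPKM. The hair expansin genes EXPA7 (61.0 and 48.4) and EXPA18 (204 and 157) and the hair regulators RHD6 (37.7 and 24.2) and RSL4 (19.8 and 22.1) were within 2-fold. The summed level of the list was 847 FPKM in W5S and 1150 in W5NS. Against 3.87% of all loci, 4 of the 16 members with at least 10 FPKM were 2-fold lower, and none was 2-fold higher.

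The lower loci also held genes of transport, metabolism and regulation. AAP1, which imports amino acids, read 1.19 FPKM in W5S and 16.4 in W5NS, whereas C6 held 75.8 and w5C6 41.0. The transporter gene UMAMIT34 read 0.841 and 14.5 FPKM, and CAX1, a vacuolar cation exchanger, 1.47 and 11.6. C/VIF2, an invertase inhibitor, read 1.70 and 23.5 FPKM. The ethylene response factor gene ERF71 read 0.0928 FPKM in W5S and 12.5 in W5NS, and the gene next to it, AT2G47530 of the extensin annotation, 0.305 and 14.8. CER4, an acyl-CoA reductase of wax and suberin alcohols, read 2.19 and 17.7 FPKM, and MYB92, a regulator of suberin, 1.61 and 10.7. GA3OX1, which makes active gibberellin, read 1.502 and 10.6, and the peptide gene CLE1 2.15 and 12.3.

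Markers of inner tissues differed between the lists. The endodermis list of 10 genes had a median of -0.09 and a mean of 0.06, with summed levels of 227 FPKM in W5S and 236 in W5NS. CASP1, a scaffold of the Casparian strip, read 53.1 and 91.7 FPKM (-0.78), while MYB36, which activates the CASP genes, read 16.7 and 6.88 (1.17). The 3 cortex markers were all low and all lower in W5S, with summed levels of 3.52 and 19.7 FPKM and a median of -1.63, and none reached 10 FPKM. The stele list of 22 genes had a median of -0.26 and sums of 126 and 155 FPKM. TMO5, a bHLH factor of vascular initials, read 0.429 and 8.31 FPKM, under 10 in both groups. Of 5 members at 10 FPKM or more, 1 was 2-fold higher and 0 lower, beside 6.46% and 3.87% of all loci. The higher gene was LOG4, at 23.4 and 8.59 FPKM (1.35). W5S cells thus still held RNA of CASP genes at levels near those of W5NS, and the share of other cell types in the sort was not tested. Genes of wounding, heat and touch, which protoplasting can induce, had no 4-fold member among 18 and a median of -0.24.

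Many of the most extreme log2 ratios belonged to small or non-coding loci. Of the 116 higher loci 16 were listed at 0 in W5NS, and of the 58 lower loci 14 were listed at 0 in W5S. Protein-coding loci made up 96 of the higher and 45 of the lower calls (1.24% of 11405 called), and only 2 and 5 of these were listed at 0. By contrast all 4 tRNA loci, 7 of 17 snoRNA loci and 4 of 13 miRNA loci at 10 FPKM or more were called. The highest log2 ratio, 5.54, was that of the chloroplast locus ATCG00110, at 45.5 FPKM in W5S, 0 in W5NS and C6 and 150 in w5C6. Among coding genes NAC057, a NAC factor, was listed at 0 in W5NS and at 14.9 FPKM in W5S. In all, 8239 loci were listed at 0 in W5S and 5560 in W5NS, and with pooled values a failed estimate cannot be told from absence.

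The threshold cut through a continuous range. Just inside it, AT2G19970 read 27.6 FPKM in W5S and 6.15 in W5NS, and just outside it AT2G38180 read 21.1 and 4.53. On the lower side AT3G57350 was inside at 2.74 and 13.98 FPKM, and ACL5, a thermospermine synthase gene of the xylem, was outside at 3.02 and 15.02. Of the 141 called protein-coding loci, 5 pairs lay within 2 genes of each other, 4 of them as direct neighbours, and both members of each pair had the same direction. Among them were CSLB01 (28.9 and 4.86 FPKM) and CSLB02 (39.6 and 8.76), cellulose synthase-like genes that were higher in W5S. Some pairs, like the CSLB genes, were of the same family, where near-identical copies can exchange reads. How many pairs to expect by position was not computed.

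The loci that separated W5S from W5NS were next read in C6 and w5C6, which share no library with either. Of the 116 higher loci, 77 had at least 10 FPKM in C6 or w5C6, and 37 of these (48.1%) were 2-fold higher in C6 than in w5C6 and 7 (9.09%) 2-fold lower. The share of 48.1% depended on the threshold for W5S over W5NS, at 19.4% with a log2 ratio of 1 and 30% with 3. Over all loci at 10 FPKM or more in the C6 and w5C6 columns the background was 5.52% higher and 5.0% lower. The called loci, however, were drawn only from the 11666 loci with at least 10 FPKM in W5S or W5NS. Of these 11666, 10626 also had at least 10 FPKM in C6 or w5C6. In that closer background 4.856% were 2-fold higher in C6 and 2.099% 2-fold lower. Of the 58 lower loci 48 were at that level, and 3 (6.25%) were higher and 16 (33.3%) lower in C6. Among protein-coding loci alone, 36 of 69 higher loci (52.2%) were 2-fold higher in C6.

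Their pooled levels were as follows in the 4 populations. The 116 loci had a median of 17.0 FPKM in C6 and 11.0 in w5C6, beside 36.6 in W5S and 5.84 in W5NS, of which the latter pair reflects how they were chosen. The 58 loci had a median of 17.59 FPKM in C6 and 24.96 in w5C6, beside 1.60 in W5S and 15.4 in W5NS. BGLU34, BGLU35, RNS3 and BRN1 were higher in both contrasts, as was WOX5, which the wox5 genotype of w5C6 itself bears on. CYP79B3 and ATCG00110 were higher in W5S and lower in C6 than in w5C6, and AAP1 was lower in W5S and higher in C6 than in w5C6. Endodermis markers differed strongly between C6 and w5C6, by a median of 3.33 on the log2 scale in favour of C6, and the part of cell makeup in these counts was not tested.

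**Figure D4:**
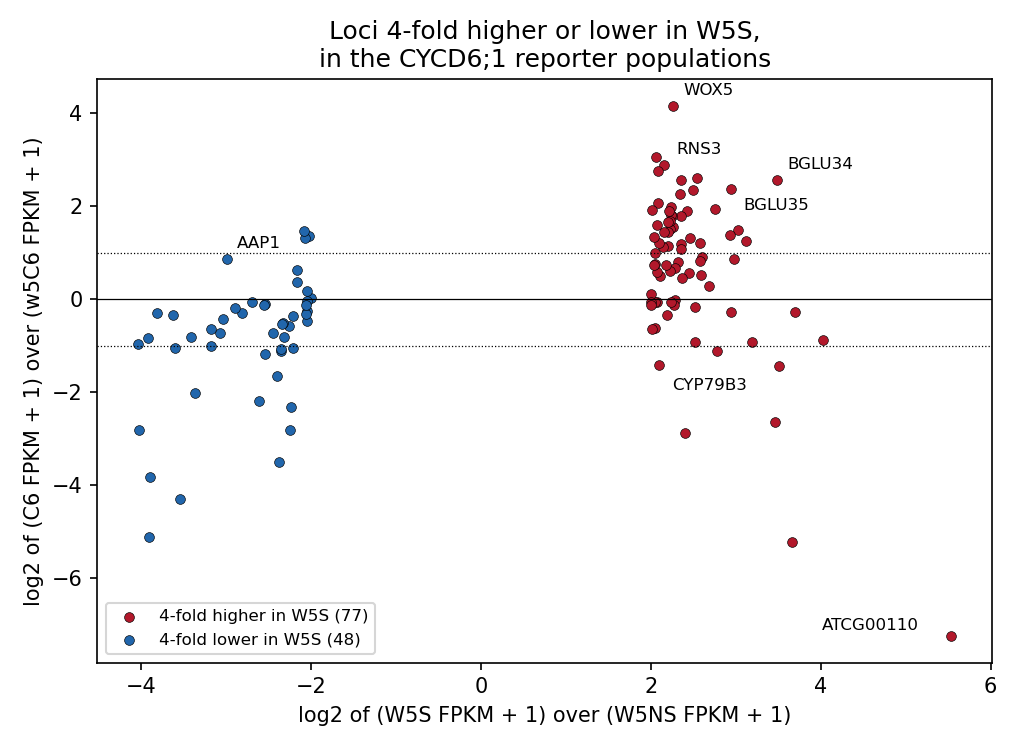
Loci 4-fold higher (red, 77) or lower (blue, 48) in W5S that had at least 10 FPKM in C6 or w5C6, with the log2 ratio of W5S over W5NS on the horizontal and that of C6 over w5C6 on the vertical axis, both of FPKM + 1. Dotted lines mark 2-fold. Of the red points 37 lie above the upper dotted line and 7 below the lower one, and of the blue points 3 and 16.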

How the data were processed

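The study sorted protoplasts of root tips for GFP and amplified their RNA with a SMART-Seq kit meant for low inputs, reading 100 bp single ends. Per the labels, the authors ran TuxNet, in which fastq-mcf trims, HISAT2 aligns and Cufflinks estimates expression. The genome build, like the annotation and the tool versions, is not given in the sources used here. Coordinates are therefore left out. The authors deposited 1 pooled value per locus and group, read here as FPKM because the header names no unit. The authors also deposited 6 columns of log2 folds and 6 of q-values for the pairs of groups, which were not used. Low transcripts can drop out when small inputs are amplified, and a value of 0 may reflect that.

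Log2 ratios used a pseudocount of 1. Gene symbols, products and gene order came from the RefSeq table of TAIR10.1, which held 32756 of 33493 gene IDs, and the 282 loci that name several IDs were counted once. Near-identical copies, such as the BGLU, CYP702A and CSLB genes, can exchange reads. The groups, the 22 gene lists and the families were chosen with earlier results of these data known. Named genes were the 15 highest and 15 lowest called loci, called members and up to 4 abundant others of each list, the loci at the threshold, WOX5, CYCD6;1, SHR, SCR and AN3, and genes said in the text to be chosen by their values. Some genes picked by this rule are left unnamed. Alternatives were other pseudocounts, minimum levels, fold thresholds and scalings, and leaving out loci at 0, loci of several IDs or non-coding loci. Python 3.11.15, pandas 2.3.3, NumPy 2.4.6 and matplotlib 3.10.9 were used.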

Additional observations from a re-analysis of the deposited data

How the results depend on the processing

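No paired analysis was possible because the deposited table holds 1 pooled column per group, without replicate numbers, and for the same reason no library could be left out. With a pseudocount of 5, 42 loci were 4-fold higher and 15 lower, and BRN1 (1.98), RNS3 (1.94), AT4G04460 (1.58) and HA7 (-1.60) were under the threshold. A minimum of 5 FPKM gave 153 lower loci, a minimum of 20 FPKM 17, and no minimum 179 higher and 227 lower. A log2 threshold of 1 gave 754 and 452 loci and a threshold of 3 gave 26 and 22, with WOX5 (2.27) then not called. The share of higher loci that were 2-fold higher in C6 than in w5C6 was 19.4% at a log2 threshold of 1 and 30% at 3, beside 48.1%. Equal nuclear sums, median scaling, loci at 0 left out, several-ID loci left out and protein-coding loci alone (the last chosen after seeing the data) kept all counts within 1.5 times. No named gene with a call changed direction, while small list medians changed sign with equal nuclear sums (starch, myrosinases, auxin perception and response), as did that of the glucosinolate list (0.04) with loci at 0 left out. The median of the root cap cell death list was 1.34 with a pseudocount of 5, and that of the cortex list -0.81. With a pseudocount of 0.1 the medians were -2.18 for cortex, -0.68 for stele, -0.44 for GRF and GIF genes and -0.71 for glucosinolate genes. Depth is unknown, and without values per library no difference here can be set against the spread between replicates.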
